A study of Mus musculus with 2 samples.

Results

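The genes described here encode the subunits of oxidative phosphorylation, and were taken from the deposited table by the names of the subunits of complexes I to V. The rule matched 101 of the 36808 rows of the table. mt-Co1 was dropped because it carries the table's mark for too many fragments, which left 100 rows. Of these, 88 are nuclear encoded and 12 are mitochondrially encoded. By name, 45 rows belong to complex I, 4 to complex II, 9 to complex III, 21 to complex IV and 21 to complex V. Earlier results of these data were known when these genes were chosen, but their measured values played no part in the choice.

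RNA was sequenced from primary hepatocytes of C57Bl6 mice, that is, parenchymal liver cells taken out of the animal and kept in culture. The culture medium was William E with serum, insulin and dexamethasone for both groups. The first group received GW3965 at 1 µM, a compound that activates liver X receptors, nuclear receptors of sterol metabolism, and the other received its solvent DMSO. Each group had 1 library, so no difference below has a replicate check, and the labels state neither age nor sex of the animals nor any pooling. The table's name for the treated library is GL. It was read as GW3965, the only treatment in the labels, and that reading is not certain.

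Oxidative phosphorylation moves electrons from NADH and succinate to oxygen through protein complexes of the inner mitochondrial membrane. Complex I (NADH dehydrogenase) and complex II (succinate dehydrogenase) pass electrons to ubiquinone, complex III hands them to cytochrome c, and complex IV (cytochrome c oxidase) reduces oxygen. The proton gradient built on the way drives complex V, the ATP synthase. Most subunits are encoded in the nucleus and imported, while a small hydrophobic core is encoded by mitochondrial DNA. Hepatocytes depend on this chain for the ATP and NAD that urea, glucose and lipid metabolism consume.

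Levels are the authors' FPKM, a fragment count scaled for transcript length and library depth. Ratios are log2 values of GW3965 over DMSO, taken after adding 1 FPKM to each, so a positive value is higher in GW3965, and low genes are understated. Judged from the steps between low values, roughly 71400000 fragments lie behind the GW3965 values and 57400000 behind the DMSO values. Markers of the labelled cell type were checked in both libraries. Apoa1 stood at 660 FPKM in GW3965 and 598 in DMSO (0.14), and Ttr at 189 in GW3965 and 205 in DMSO (-0.12). Apob had 248 in GW3965 and 244 in DMSO (0.03). Serpina1a had 99.9 in GW3965 and 138 in DMSO (-0.46), and Hnf4a, a transcription factor of hepatocyte identity, had 37.4 in GW3965 and 49.4 in DMSO (-0.39), both over 1.2-fold lower. Cps1, a urea cycle enzyme of the mature hepatocyte, was at 2.10 FPKM in GW3965 and 1.497 in DMSO (0.31). Tat was at 0.447 in GW3965 and 0.962 in DMSO (-0.44). These 2 mature-liver markers were thus near the bottom of the measured range, and Alb and Trf carry the mark for too many fragments. Endothelial markers summed to 144 FPKM in GW3965 and 121 in DMSO over 5 of 5 genes. All 5 had ratios above 0, with a median of 0.27, and 3 were at least 1.2-fold higher. Macrophage markers summed to 210 in GW3965 and 206 in DMSO over 7 genes in the table. However, 4 of the 6 macrophage genes at the minimum were below 0, and the median ratio of these 6 was -0.12. Stellate cell markers summed to 22.4 in GW3965 and 18.2 in DMSO over 6 genes. Of the 5 stellate genes at the minimum, 4 were above 0, with a median ratio of 0.21 over the 5. Cholangiocyte markers summed to 21.6 in GW3965 and 19.6 in DMSO over 4 genes. All 3 erythroid markers were below 1 FPKM. Their part in the results below was not tested, and in such bulk RNA a change in cell mixture and a change of RNA per cell cannot be told apart.

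The main picture was of small differences, mostly below 0 for nuclear genes and close to 0 for mitochondrial genes, and nearly all within the error derived from the authors' score. Of the 100 rows, 90 reached 1 FPKM in either library. None of the 90 was 1.5-fold higher or lower, where 1.02% of the 11796 genes at that minimum were higher and 1.33% lower by that size. At 1.2-fold, 1 member (Ndufa4l2) was higher and 3 (Atp5k, Ndufb11 and Uqcrb) were lower, against 6.09% of all genes higher and 7.71% lower. Yet 65 of the 90, or 72.2%, had a ratio below 0, against 47.1% of all genes. The median ratio of the members was -0.08, and that of all genes was 0.01. The 79 nuclear members had a median of -0.11 with 61 below 0, and the 11 mitochondrial members had a median of 0.03 with 4 below 0. No test of these differences was possible with 1 library per group, and genes are not replicates.

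**Figure D1:**
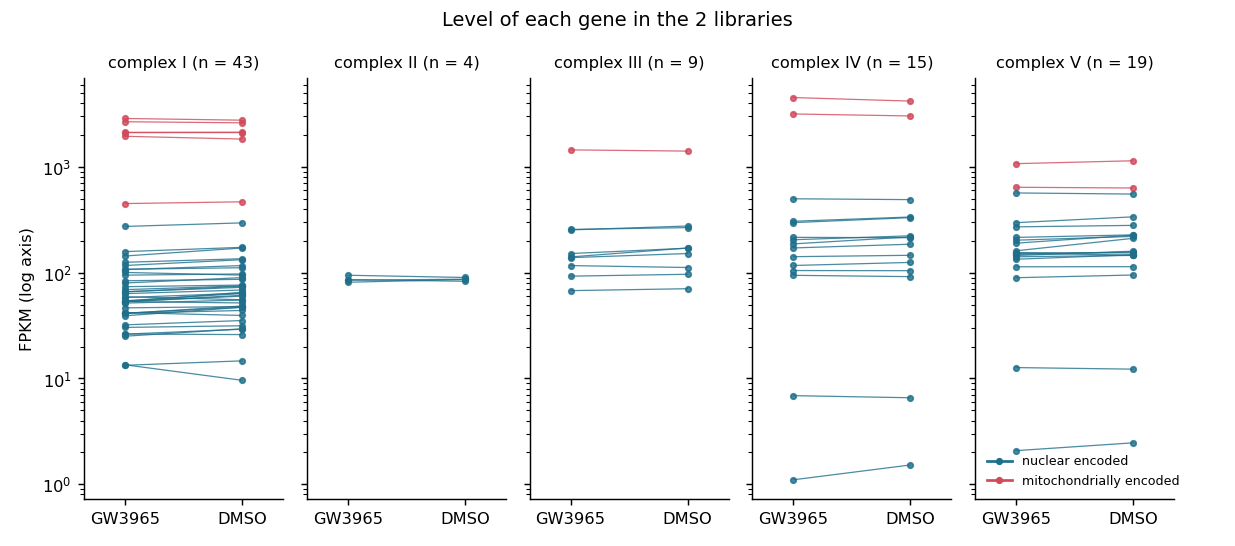
FPKM (log axis) of each of the 90 members at 1 FPKM or more, in the GW3965 library and in the DMSO library, with 1 panel per complex and a line joining each gene's 2 values. Mitochondrially encoded genes (red) lie above nuclear ones (blue) in every panel that has both, and most lines are close to level.

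The authors' deposited table calls 0 of the 96 member rows its test was run on, against 0.285% of the 15090 genes tested. That test sets 1 library against another and does not compare conditions. Only Atp5k in the authors' deposited table had p under 0.05 (p = 0.0436, q = 0.999957), where 3.34% of the tested genes had such a p. Standard errors of the log2 fold, derived from the authors' score, had a median of 0.21 over the 90 members and ranged from 0.18 to 3.62. The log2 fold of 82 members was smaller than its own standard error. The other 8 were all lower in GW3965. By comparison, 85.8% of all tested genes at the minimum lay within 1 standard error.

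In complex I, the accessory subunits that surround the catalytic core had ratios below 0 in nearly every case, though only Ndufb11 was 1.2-fold lower, while nuclear core subunits lay on both sides of 0. The core carries flavin, iron-sulfur clusters and the quinone site, and the ratios of its nuclear genes given here ran from -0.26 to 0.09. The 7 nuclear core genes had a median ratio of -0.05, with 4 below 0, and a median transcript length of 1312 bases. The 30 genes counted as accessory by name, which include Ndufa4 and Ndufa4l2, had a median ratio of -0.13, with 27 below 0. Without these 2 genes the median was also -0.13, with 26 of 28 below 0. The annotated transcripts of the 30 genes had a median length of 674.5 bases.

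Among core genes, Ndufs8, an iron-sulfur subunit, had 41.9 FPKM in GW3965 and 39.4 in DMSO, a ratio of 0.09. Ndufv1, which binds NADH and flavin, had 53.3 in GW3965 and 51.7 in DMSO (0.04). Ndufs1, the largest iron-sulfur subunit, had 26.3 in GW3965 and 26.0 in DMSO (0.02). These 3 were level or slightly higher. Ndufv2, another iron-sulfur subunit, departed from them with 39.1 FPKM in GW3965 and 47.1 in DMSO, a ratio of -0.26 and a log2 fold of 1.16 standard errors. Ndufs7 and Ndufs3 stood at -0.17 and -0.13.

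The lowest ratio of complex I was that of Ndufb11, an accessory subunit of the membrane arm, with 53.5 FPKM in GW3965 and 65.3 in DMSO (-0.28). Other annotated genes hold 34.3% of its 25-base words, chiefly a processed pseudogene, so its reads are uncertain. Ndufa2, another accessory subunit, had 144 FPKM in GW3965 and 171 in DMSO (-0.25). Ndufa13, also known as GRIM-19, had 41.2 in GW3965 and 48.4 in DMSO (-0.23), and it shares 34.8% of its words, mostly with the overlapping gene Tssk6. All 3 lay over 1 standard error below 0. Ndufa9, an accessory subunit near the quinone site, went the other way with 59.2 in GW3965 and 55.5 in DMSO (0.09). Among nuclear genes of complex I the levels ran from Ndufa11, at 13.3 FPKM in GW3965 and 14.7 in DMSO, to Ndufa4 at 274 in GW3965 and 296 in DMSO, setting Ndufa4l2 aside. Ndufa4 is named for complex I, but its product is now assigned to complex IV.

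Ndufa4l2 is a paralogue of Ndufa4 known as a hypoxia-inducible gene, and it had the highest ratio of all members. It had 13.5 FPKM in GW3965 and 9.60 in DMSO, a ratio of 0.45. The standard error of its log2 fold was 0.79, so the difference was smaller than its own error. Its locus in the table holds 2 genes. Ndufa4 itself stood at -0.11, so the level of Ndufa4 was 20.3 times that of Ndufa4l2 in GW3965 and 30.8 times in DMSO.

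Complex II, which is wholly nuclear encoded and also works in the citrate cycle, was the most even. Sdha, the flavoprotein, had 94.5 FPKM in GW3965 and 90.1 in DMSO (0.07). Sdhb, the iron-sulfur subunit, had 84.8 in GW3965 and 86.8 in DMSO (-0.03). The membrane anchors were alike, with Sdhc at 86.1 in GW3965 and 82.9 in DMSO (0.05) and Sdhd at 81.2 in GW3965 and 86.2 in DMSO (-0.08). The 4 subunits thus lay between 81.2 and 94.5 FPKM in GW3965 and between 82.9 and 90.1 in DMSO. The 37 nuclear genes of complex I spread from 13.3 to 274 FPKM in GW3965 and from 9.60 to 296 in DMSO.

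In complex III, 7 of the 8 nuclear genes had ratios below 0, and only Uqcrb was 1.2-fold lower. Uqcrc1, a core protein, had 117 FPKM in GW3965 and 112 in DMSO (0.06). Uqcrc2, its partner, had 92.7 in GW3965 and 96.6 in DMSO (-0.06), and Uqcrfs1, the Rieske iron-sulfur protein, had 67.7 in GW3965 and 70.5 in DMSO (-0.06). These 3 also had the lowest levels of the complex. Uqcrb, a small subunit near the ubiquinone site, had 141 in GW3965 and 171 in DMSO, a ratio of -0.28 and a log2 fold of 1.51 standard errors, and 37.5% of its words are shared with other genes. Uqcr11 had 152 in GW3965 and 170 in DMSO (-0.17), and Uqcr10 had 139 in GW3965 and 152 in DMSO (-0.13). Uqcrh, the hinge protein that contacts cytochrome c, had 254 in GW3965 and 276 in DMSO (-0.12), and Uqcrq stood at -0.06. Uqcrq was thus as near to 0 as Uqcrc2 and Uqcrfs1. The 5 small subunits had a median ratio of -0.13 and a median transcript length of 474.5 bases, and the 3 large ones a median ratio of -0.06 and a median length of 1653 bases.

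Complex IV divided into abundant common subunits and isoforms that were scarce or at 0. The 12 nuclear subunit genes at the minimum had a median ratio of -0.11, with 8 below 0. Cox4i1, the largest nuclear subunit, had 499 FPKM in GW3965 and 490 in DMSO (0.03), although the table merges its locus into one that holds 152 genes. Cox5b, which binds zinc, had 216 in GW3965 and 214 in DMSO (0.01). Cox6c had 187 in GW3965 and 218 in DMSO (-0.22), and Cox6b1, which faces cytochrome c, had 297 in GW3965 and 331 in DMSO (-0.16). Cox7a2l, a supercomplex assembly factor, stood at -0.10.

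The complex IV isoforms known from other tissues were far below their common partners. Cox4i1 stood at 1179 times Cox4i2 in GW3965 and 1361 times in DMSO. Cox4i2, a lung and hypoxia form, had 0.424 FPKM in GW3965 and 0.360 in DMSO, which corresponds at the smallest to 19 reads in GW3965 and 13 in DMSO. Cox6a2, a heart and muscle form, was at 0.152 in GW3965 and 0.0946 in DMSO, or 2 reads in GW3965 and 1 in DMSO at the smallest. Cox6b2, a testis form, was at 0.0645 in GW3965 and 0.160 in DMSO, or 1 read in GW3965 and 2 in DMSO. Counts this small allow no statement on direction. Cox7a1, the heart and muscle form of Cox7a2, had 1.10 FPKM in GW3965 and 1.52 in DMSO (-0.26). These values stand in the proportion of 9 reads in GW3965 to 10 in DMSO, which is the smallest possible number, and the true one may be a multiple. The standard error of its log2 fold was 0.57, so the difference was smaller than its own error. Cox7a2 had 94.4 in GW3965 and 91.7 in DMSO (0.04), which is 85.7 times Cox7a1 in GW3965 and 60.3 times in DMSO. Cox7b2, Cox8b and Cox8c were listed at 0 in both libraries, while Cox8a, the common form, had 205 FPKM in GW3965 and 223 in DMSO (-0.12). Of the 5 muscle markers, Ckm and Myl2 were also listed at 0, and only Tnnt2 reached 1 FPKM, with 12.2 in GW3965 and 9.73 in DMSO (0.29).

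**Figure D2:**
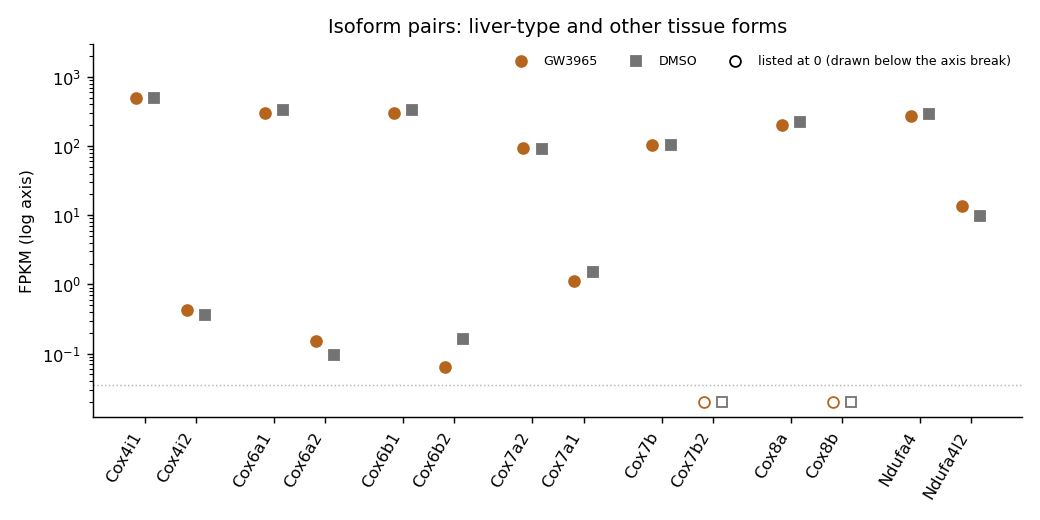
FPKM (log axis) of 7 isoform pairs, with GW3965 as circles left of DMSO as squares, and open symbols below the dotted line for genes listed at 0. In each pair the common form stands above the other form in both libraries, from 20.3 times for Ndufa4 over Ndufa4l2 in GW3965 upward.

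The promoters of 2 such pairs are shown as examples of an abundant form beside a scarce one, as 150 bases before the RefSeq start in GRCm38.p6, 5′ to 3′ on the gene's strand. None holds the NRF1, ETS or YY1 letters given further on, hence no capitals. Cox7a2 and Cox8a hold 11 and 10 CG pairs, and Cox7a1 and Cox8b hold 4 and 1. The median is 10.5 over the promoters of nuclear subunit genes, 12 over those of other genes at 20 FPKM or more and 4 over all 32851 RefSeq promoters.
Cox7a2 (chr9:79759854-79760003, minus strand): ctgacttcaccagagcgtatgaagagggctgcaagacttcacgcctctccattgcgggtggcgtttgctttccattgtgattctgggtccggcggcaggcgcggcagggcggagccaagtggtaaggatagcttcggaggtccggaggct
Cox7a1 (chr7:30184021-30184170, plus strand): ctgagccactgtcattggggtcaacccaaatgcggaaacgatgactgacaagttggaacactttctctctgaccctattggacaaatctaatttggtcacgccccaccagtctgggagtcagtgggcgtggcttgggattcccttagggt
Cox8a (chr19:7217617-7217766, minus strand): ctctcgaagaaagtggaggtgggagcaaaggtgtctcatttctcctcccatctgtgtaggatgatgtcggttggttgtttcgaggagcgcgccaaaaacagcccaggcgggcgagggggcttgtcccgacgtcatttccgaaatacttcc
Cox8b (chr7:140900447-140900596, minus strand): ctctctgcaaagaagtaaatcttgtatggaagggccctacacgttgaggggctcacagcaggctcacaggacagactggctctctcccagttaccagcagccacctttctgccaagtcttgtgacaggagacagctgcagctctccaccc

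In complex V, most genes had ratios somewhat below 0, and only Atp5k was 1.2-fold lower. This held in the F1 part (catalytic head and central stalk) as in the membrane part and peripheral stalk. Atp5b, the catalytic beta subunit, was the most abundant nuclear member, with 567 FPKM in GW3965 and 553 in DMSO (0.04). Atp5a1, the alpha subunit, had 271 in GW3965 and 280 in DMSO (-0.05). The 5 genes of the F1 part had a median of -0.04, with 3 below 0. The 10 genes of the membrane part and peripheral stalk had a median of -0.10, with 9 below 0. Within the F1 part Atp5e, its smallest subunit, stood apart with 190 in GW3965 and 226 in DMSO, a ratio of -0.25 and a log2 fold of 1.348 standard errors.

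Atp5k, which encodes subunit e of the membrane part and takes part in dimer formation, had the lowest ratio of all members (ENSMUSG00000050856, chromosome 5, 108862263 to 108863467, mm9). It had 161 FPKM in GW3965 and 211 in DMSO, a ratio of -0.39 and a fold without pseudocount of 0.763. The standard error was 0.19, and its log2 fold of 2.02 standard errors was the widest among the 90 members. Its annotated transcript, 321.5 bases, is the shortest among nuclear members at the minimum. Atp5o, the stalk protein that confers oligomycin sensitivity, had the highest ratio of the complex with 153 in GW3965 and 147 in DMSO (0.06), but 52.8% of its words are shared, in part with an antisense gene.

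Atp5g1, Atp5g2 and Atp5g3 encode the same mature c subunit of the rotating ring from different precursors. Atp5g3 had 297 FPKM in GW3965 and 337 in DMSO (-0.18), Atp5g2 had 203 in GW3965 and 220 in DMSO (-0.12), and Atp5g1 had 89.6 in GW3965 and 95.04 in DMSO (-0.08). All 3 had ratios below 0, and their order was the same in both libraries. Together they summed to 589 FPKM in GW3965 and 652 in DMSO. Atp5g3 gave 50.4% of that sum in GW3965 and 51.7% in DMSO, and Atp5g1 gave 15.2% in GW3965 and 14.6% in DMSO. Of the words of Atp5g2, 40.8% are shared, mostly with a transcribed pseudogene.

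**Figure D3:**
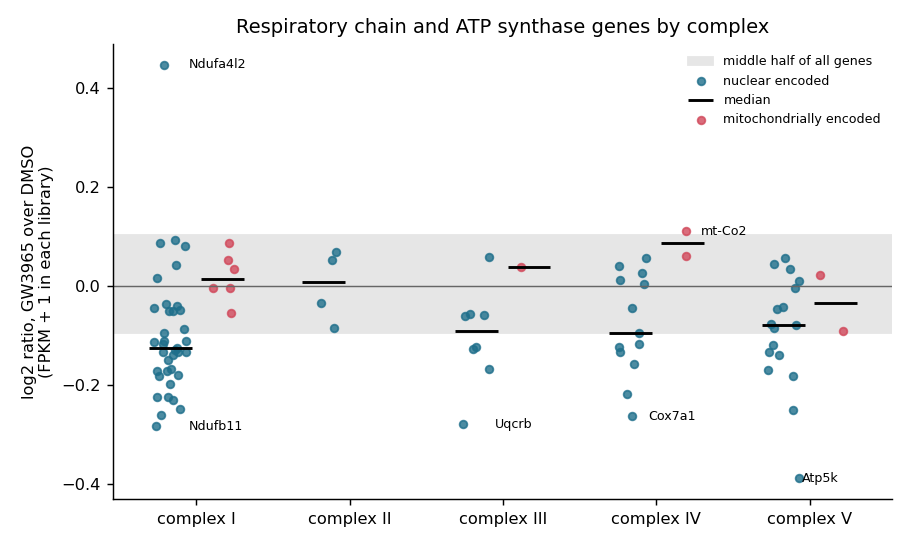
Log2 ratio of GW3965 over DMSO (FPKM + 1) for each of the 90 members by complex, nuclear (blue) and mitochondrial (red), with black bars at medians and a grey band from -0.09 to 0.10, the lower to the upper quartile of all genes. Nuclear genes of complex I centre at -0.12, below that band. Those of complex IV at -0.10 and complex III at -0.09 centre near its lower edge. Ndufa4l2 at 0.45 and Atp5k at -0.39 are the extremes.

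The mitochondrially encoded genes were far more abundant and nearly level. mt-Co2, the copper-binding subunit of complex IV, had 4523 FPKM in GW3965 and 4187 in DMSO (0.11), the highest ratio of the group. mt-Co3 had 3163 in GW3965 and 3030 in DMSO (0.06), and mt-Cytb, the cytochrome b of complex III, had 1448 in GW3965 and 1410 in DMSO (0.04). All 3 ratios were above 0, but each log2 fold was well within its standard error.

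Among the complex I genes of mitochondrial DNA, mt-Nd4 had 2868 FPKM in GW3965 and 2764 in DMSO (0.05). mt-Nd1 had 2671 in GW3965 and 2608 in DMSO (0.03), and mt-Nd5 had 1946 in GW3965 and 1832 in DMSO (0.09). mt-Nd2, at 2106 in GW3965 and 2111 in DMSO, and mt-Nd6, at 2122 in GW3965 and 2126 in DMSO, had ratios that round to 0. mt-Nd6 lies on the other strand and shares a locus with mt-Nd5 in the table, and no source used here states how strand was handled. mt-Nd3 was lower in level, with 450 in GW3965 and 468 in DMSO (-0.05).

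The ATP synthase genes of mitochondrial DNA overlap each other, so reads can be split between them. mt-Atp6 had 642 FPKM in GW3965 and 631 in DMSO (0.02), and mt-Atp8 had 1072 in GW3965 and 1142 in DMSO (-0.09). The standard error of mt-Atp8 was 2.11, the widest among the 90 members after Cox4nb. mt-Nd4l, which abuts mt-Nd4, was at 0.270 FPKM in GW3965 and listed at 0 in DMSO. It shares a locus with mt-Nd4, which had 2868 in GW3965 and 2764 in DMSO. Nearly all words of mt-Nd4l also occur in other annotated transcripts, so its value cannot be read as a low level of the gene. How reads were divided between mt-Nd4l and mt-Nd4 was not tested. mt-Co1 was listed at 0 in GW3965, against 10578 in DMSO, and carries the mark named above, so that 0 is a failed estimate. It made up 32.2% of the mitochondrial sum of the DMSO library when counted.

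Several of these levels are uncertain in size because nuclear copies of mitochondrial DNA share their sequence. Of the 25-base words of mt-Co2, 100% also occur in other annotated transcripts, and for mt-Co3, mt-Atp6, mt-Nd3 and mt-Nd4l the share was between 98.1% and 99.9%. These copies are annotated as unprocessed pseudogenes on chromosome 1. Gm10222, the copy that shares most with mt-Nd4l, was listed at 1.26 FPKM in GW3965 and 0.335 in DMSO. Gm13340, a copy on chromosome 2 that shares words with mt-Co1, had 2.53 in GW3965 and 3.25 in DMSO. How reads were divided between copies and mitochondrial genes was not tested. For mt-Nd1 the share was 0%, for mt-Atp8 11.7% and for mt-Cytb 13.0%. It was 14.9% for mt-Nd6, 18.2% for mt-Nd2 and 21.3% for mt-Nd5. Among these genes with less sharing, mt-Nd1, mt-Cytb and mt-Nd5 had ratios of 0.03, 0.04 and 0.09. The ratio of mt-Atp8 was -0.09, and those of mt-Nd6 and mt-Nd2 round to 0. Over all 94 subunit rows kept, 12 shared over 30% of their words, 6 nuclear and 6 mitochondrial.

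Shares here are of the FPKM of all rows except the 7 marked for too many fragments, which include mt-Co1, Alb and Trf. Summed without mt-Co1, the mitochondrial genes made up 23011 FPKM in GW3965 and 22309 in DMSO, or 4.29% in GW3965 and 4.15% in DMSO. The 88 nuclear rows summed to 9498 in GW3965 and 10122 in DMSO, or 1.77% in GW3965 and 1.88% in DMSO. GW3965 over DMSO was 1.031 for the mitochondrial sum and 0.938 for the nuclear sum. By complex, the nuclear sums were at 0.924 of DMSO for complex I, 1.00 for II, 0.927 for III, 0.949 for IV and 0.940 for V.

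Transcript length moved with the ratio in these genes and in the rest of the table. The 39 nuclear members with annotated transcripts of up to 750 bases had a median ratio of -0.13, and 37 of them were below 0. The 40 longer ones had a median of -0.04, with 24 below 0. Among other protein-coding genes with a mean of at least 20 FPKM, 210 short ones had a median of -0.06 with 68.1% below 0, and 3580 long ones had 0.04 with 37.1% below 0. The longer class is not matched in length, since most other genes in it are longer than the members. In finer bins against other genes at that level, the share of nuclear members below 0 was 100% against 75% up to 500 bases and 92.9% against 66.9% from 500 to 750. It was 58.3% against 62.0% from 750 to 1000 bases, 72.7% against 50.6% from 1000 to 1500, 58.3% against 38.6% from 1500 to 2500, and 40% of 5 genes against 27.1% over 2500. The members' share was thus the higher one in every bin but that from 750 to 1000 bases, and none of these differences was tested. Across the 79 nuclear members, log10 length and ratio had a Pearson r of 0.43 and a Spearman rho of 0.49, and across 10909 other protein-coding genes 0.14 and 0.20. These are descriptions across genes that share both libraries, and short transcripts also rest on small effective lengths. The part of length in the nuclear ratios was not tested further.

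**Figure D4:**
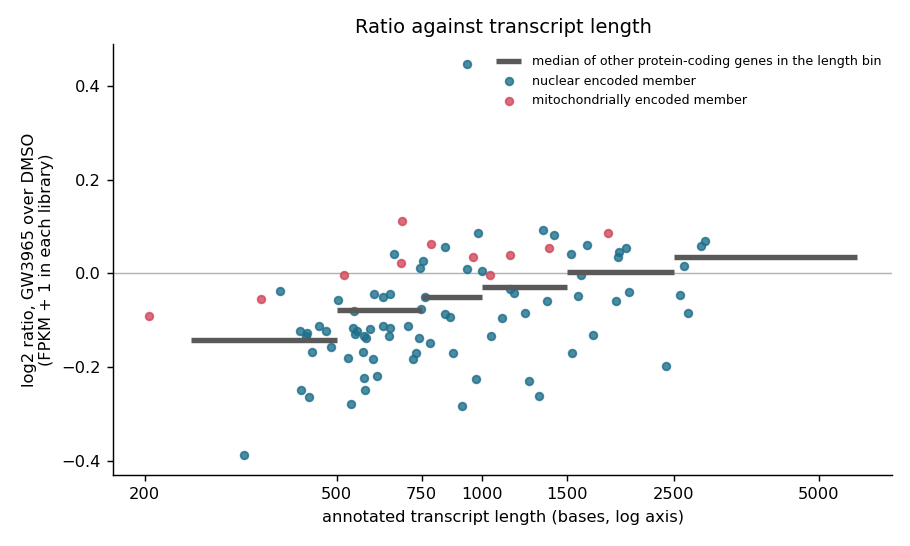
Log2 ratio of GW3965 over DMSO (FPKM + 1) against annotated transcript length in bases (log axis) for nuclear (blue) and mitochondrial (red) members, with grey bars at the median of other protein-coding genes in each length bin. The grey bars climb from -0.14 at up to 500 bases to 0.04 over 2500 bases, and most short nuclear members lie below 0.

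Promoters of nuclear subunit genes are known to carry sites of NRF1, of ETS factors such as GABP, and of YY1, regulators that coordinate respiratory genes. RefSeq promoters from 250 bases before to 50 after the start were on hand for 67 of the 82 nuclear subunit rows, as 72 promoters. The letters GCGCA and GCGC with any 1 base between (NRF1) were found on either strand in 25% of them, CCGGAAG (ETS) in 22.2% and AAGATGGC (YY1) in 13.9%. In all 32851 promoters the shares were 4.60%, 8.86% and 2.75%, and in 3680 promoters of other protein-coding genes at 20 FPKM or more they were 12.1%, 20.1% and 4.95%. The 37 genes with any of the 3 had a median ratio of -0.12, and the 27 genes without, at the minimum, had -0.11. AGGTCA followed by AGGTCA after any 4 bases, the kind of repeat that liver X receptors bind, was in 0 of the 72 and in 5 of all promoters. A match is a description of letters, not a site.

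The promoters below show these letters in capitals in the member with the lowest ratio (Atp5k), in the most abundant member with NRF1 letters in the window (Cox6a1, which also holds ETS letters) and in the most abundant with YY1 letters (Atp5j, a stalk subunit, with ETS letters too). Each is 150 bases before the start in GRCm38.p6, on the gene's strand, which is the minus strand for all 3.
Atp5k (chr5:108434400-108434549): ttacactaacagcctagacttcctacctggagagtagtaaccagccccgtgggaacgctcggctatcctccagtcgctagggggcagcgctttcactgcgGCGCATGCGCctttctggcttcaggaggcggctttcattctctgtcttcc
Cox6a1 (chr5:115348959-115349108): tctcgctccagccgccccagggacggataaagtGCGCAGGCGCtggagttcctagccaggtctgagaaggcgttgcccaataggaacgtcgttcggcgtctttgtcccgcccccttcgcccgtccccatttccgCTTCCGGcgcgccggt
Atp5j (chr16:84834977-84835126): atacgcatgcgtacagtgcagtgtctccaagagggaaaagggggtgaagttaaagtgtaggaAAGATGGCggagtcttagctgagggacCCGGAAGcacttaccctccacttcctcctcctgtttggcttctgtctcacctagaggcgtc
Cox6a1 had 306 FPKM in GW3965 and 336 in DMSO (-0.13), and Atp5j had 134 in GW3965 and 148 in DMSO (-0.14), so neither came near the -0.39 of Atp5k.

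Other genes of the pathway moved as little. Of 35 assembly factors at the minimum, 21 were below 0, with a median of -0.06, 1 at least 1.2-fold lower and 0 at least 1.2-fold higher. That one was Fam36a (Cox20), a chaperone of the copper-binding subunit, with 9.66 FPKM in GW3965 and 12.8 in DMSO (-0.37). Cox15, which makes heme A, stood at -0.25, while Sco2, a copper chaperone, stood at 0.14 and Tmem70, an ATP synthase assembly factor, at 0.13. The 15 electron carrier genes had a median of -0.03 with 9 below 0. The electron transfer flavoprotein genes, which feed electrons of fatty acid oxidation into ubiquinone, were all below 0, with Etfdh at 20.9 FPKM in GW3965 and 25.3 in DMSO (-0.26) and Etfa at 78.1 in GW3965 and 93.5 in DMSO (-0.26). Coq7 and Coq4, of ubiquinone synthesis, were the highest at 0.28 and 0.20.

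Among 9 genes of ATP exchange and coupling, the median was 0.05. Ucp2, an uncoupling protein relative, had 13.6 FPKM in GW3965 and 17.96 in DMSO (-0.38), and Slc25a4, the heart-type ADP/ATP carrier, had 22.2 in GW3965 and 27.8 in DMSO (-0.31). The common carrier Slc25a5 had 407 in GW3965 and 378 in DMSO (0.10), and the phosphate carrier Slc25a3 stood at 0.08. The carriers thus did not move as 1 group. The 12 biogenesis regulators had a median that rounds to 0, with Tfam, the mitochondrial transcription factor, at -0.22, Tfb1m at -0.14, Polrmt, the mitochondrial RNA polymerase, at 0.13 and Nrf1 at 0.09. Ppargc1a and Ppargc1b, coactivators of respiratory genes, were below 1 FPKM in both libraries.

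The citrate cycle genes have long transcripts, with a median of 2491.5 bases, and their ratios were near those of other long genes given above. Of its 13 genes 3 were below 0 and the median was 0.04, from Suclg2 at -0.12 and Fh1 at -0.04 to Mdh2 at 0.13 and Cs, the citrate synthase, at 0.14. Mitochondrial ribosomal protein genes had 59 of 76 below 0 with a median of -0.06, from Mrpl13 at -0.27 and Mrpl48 at -0.23 to Mrpl40 at 0.10 and Mrpl2 at 0.15. Cytosolic ribosomal protein genes, which are also short and abundant, had 50 of 75 below 0 with a median of -0.03, from Rpl39 at -0.30 and Rps19 at -0.27 to Rplp0 and Rpl5 at 0.17. Neither the citrate cycle nor the ribosomal lists had a member 1.2-fold higher, and 1 mitochondrial and 2 cytosolic ribosomal genes were 1.2-fold lower.

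**Figure D5:**
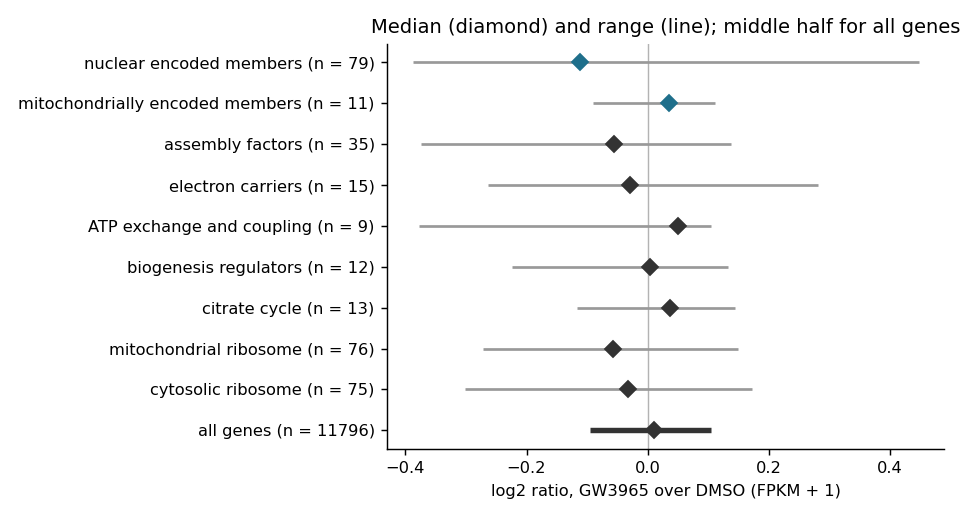
Median (diamond) and range (line) of the log2 ratio of GW3965 over DMSO (FPKM + 1) for nuclear and mitochondrial members and for other lists of the pathway, with the quartiles of all genes at the bottom. Nuclear members have the lowest median, -0.11, and the ranges of all lists overlap.

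The remaining matched rows were few. Cox4nb, Atp5s and Atp5sl encode no subunit in spite of their names, with Cox4nb (Emc8, of an endoplasmic reticulum membrane complex) at 6.88 FPKM in GW3965 and 6.57 in DMSO (0.06). Its locus is the one that holds Cox4i1. Atp5s had 2.08 in GW3965 and 2.46 in DMSO (-0.17), and Atp5sl had 12.7 in GW3965 and 12.2 in DMSO (0.05). Of the 10 rows below the minimum, Atp5l-ps1 and Atp5l2 are processed pseudogenes of Atp5l at 1 or 2 reads, and a second row named Ndufb8 is annotated in GENCODE as Gm20538, at 0.386 FPKM in GW3965 and 0 in DMSO. The others are Cox4i2, Cox6a2, Cox6b2, Cox7b2, Cox8b, Cox8c and mt-Nd4l, given above. The value of mt-Nd4l is uncertain for the reasons given there.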

How the data were processed

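The deposited values are FPKM made by the authors with Cuffdiff, 1 column per library, per the file headers. Per the submitters' processing notes CASAVA, TopHat2 2.0.6, Cufflinks 2.0.2 and builds mm9 and NCBIM37 were used; no source used here gives the settings, library scaling or strand handling. The table's p-value and q-value and its test score are the authors', per the file headers; standard errors are the log2 FPKM ratio over that score, in size. The members and lists were chosen with earlier results of these data known. Ratios used a pseudocount of 1 FPKM, a minimum of 1 FPKM in either library, and thresholds of 1.5-fold and 1.2-fold. Not every member is reported by name here. No SD or p-value was computed, as each group has 1 library.

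Transcript lengths (median over basic coding transcripts), gene classes and shared words of 25 bases on either strand came from GENCODE M21 (GRCm38), joined by identifier for all 100 kept rows; table positions stay in mm9, with 1 added to starts. Depth came from 3769 genes at up to 0.2 FPKM, of which 57.4% had FPKM ratios of whole numbers up to 10 within 0.1% (1.59% after a shift of 3%), scaled on 110 genes with 1 transcript over 1500 bases, and is approximate; whole reads given for low genes are the smallest possible. Named genes were the extremes of ratio and level in each complex, all mitochondrial and complex II genes, isoform pairs, rows below the minimum, and the extremes of each pathway list. Alternatives were other pseudocounts, minimums and scalings. The counting rules were tested on simulated data. Python 3.11.15, numpy 2.4.6, pandas 2.3.3 and matplotlib 3.10.9 were used.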

Additional observations from a re-analysis of the deposited data

How the results depend on the processing

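Of 157 values recomputed under 8 alternative settings and 1 alternative q-value limit, 151 kept their direction and stayed within the limits set. This does not mean that they kept their size, and part of these values could not change. Keeping only genes with status OK removed no member at the minimum, and leaving out non-subunit rows did not touch the other lists of the pathway. The limit of change for a median was also wider than several of the medians themselves. The count of members 1.2-fold lower, 3 as reported, was 5 with a pseudocount of 0.1 and 5 after centring on the median of all genes, where Ndufv2 and Cox7a1 joined. The median of complex II, 0.0095 as reported, was -0.0012 after centring. That of the biogenesis regulators, 0.0035 as reported, was -0.0035 with a pseudocount of 5, -0.023 with no minimum and -0.0072 after centring. Centring lowers all ratios equally. With no minimum, a value above 0 in both libraries was still required. That setting added Ppargc1a (-0.17) and Ppargc1b (-0.08) to the biogenesis regulators. For the pseudocount the cause was not tested. The nuclear median ranged from -0.12 to -0.09 and the mitochondrial median from 0.02 to 0.04 over the settings run, and that of complex IV from -0.07 to -0.02. Of 360 single-gene ratios recomputed, 5 moved beyond the limit set. Reversal was checked only for the 1 higher and 3 lower genes called at 1.2-fold, and none of these reversed. Ratios near 0 could change sign without being counted. That of Atp5f1 was -0.0035 as reported and 0.0012 when both libraries were scaled to the same sum over nuclear genes. No paired analysis was possible because GW3965 and DMSO have 1 library each. Depth limits the isoforms at a few reads.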

Other observations

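The ribosomal RNAs of mitochondrial DNA were measured beside its coding genes. mt-Rnr1 had 492 FPKM in GW3965 and 463 in DMSO, a log2 ratio of 0.09, and mt-Rnr2 had 243 in GW3965 and 256 in DMSO (-0.08). Both were well below most coding genes of the same genome, and they differed in sign.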
